A study of Mus musculus with 4 samples.

Results

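Muscle takes up glucose by an insulin and an AMPK route that meet at the same transporter, GLUT4. This report describes the start-site reads of 10 genes of these routes in skeletal muscle of AMPKα2 knockout (KO) and wild-type (WT) mice. They are Slc2a4, Tbc1d1, Tbc1d4, Hk2, Insr, Irs1, Akt2, Pik3r1, Acaca and Acacb. They were chosen by symbol, and every row of the deposited table with one of these symbols was used. The table held 9 of the 10 genes, with 76 of its 42207 start sites. A total of 9838 genes were named in the table.

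Total RNA came from gastrocnemius muscle of male mice about 8 weeks old, with 2 AMPKα2-/- animals on C57BL/6 and 2 WT controls. The labels give the tissue as skeletal muscle and the stage as adult. For each animal 1 library was made with WTSS-seq (whole transcriptome start site sequencing). In this method, cDNA made with a template-switching primer is sequenced from the 5′ side, so that a read marks the 5′ end of a transcript or of a fragment of one. Read ends are listed as alternative start sites (ASS), and how they were grouped is not given in the sources used here. The deletion in the KO animals takes away part of the region that codes for the catalytic domain of AMPKα2. Whole muscle was used, so a lower share of a cell type and less RNA per cell cannot be told apart.

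As background, insulin binds its receptor (Insr), which phosphorylates the adaptor IRS1 (Irs1). IRS1 recruits phosphoinositide 3-kinase through its regulatory subunit p85α (Pik3r1), and the lipid product activates the kinase AKT2 (Akt2). AKT2 phosphorylates TBC1D4 (AS160), and AMPK phosphorylates its relative TBC1D1. Both are Rab GTPase-activating proteins that hold GLUT4 vesicles inside the cell until they are phosphorylated. GLUT4 (Slc2a4) then carries glucose in, and hexokinase 2 (Hk2) phosphorylates it. AMPK also phosphorylates and inhibits the acetyl-CoA carboxylases ACC1 (Acaca) and ACC2 (Acacb). These make malonyl-CoA, which serves as a building block of fatty acids and restrains entry of fatty acids into mitochondria. These phosphorylations act on the proteins, whereas the values here are read counts of RNA.

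The 4 libraries held 1300069 to 2900279 reads, the KO libraries having more than the WT libraries. The 10 genes took 2583 and 1930 KO reads and 1164 and 1226 WT reads. Normalized counts are reads divided by the size factor of the library, which corrects for depth. Prkaa2, the targeted gene, had 149 and 183 normalized counts in KO against 153 and 186 in WT, so its sum gave no check of the labels. All 8 of the listed muscle fibre markers were found, led by Myh4 with 15934 to 27034 normalized counts. Of 7 adipocyte markers 6 were found, with summed normalized counts of 5908 and 2989 in KO against 5874 and 3313 in WT, and Retn was absent. Fabp4 made up nearly all of this sum, with 5792 and 2861 in KO against 5720 and 3197 in WT. Adipoq had 28.1 and 35.8 in KO against 35.1 and 22.4 in WT. The 5 fibroblast markers summed to 2591 and 2124 in KO against 3157 and 3085 in WT, and the 4 endothelial markers to 46.4 and 73.4 in KO against 85.5 and 87.2 in WT. Of the 5 blood markers 2 were found, at 34.2 and 49.8 in KO against 154 and 52.3 in WT, and of the 3 Schwann cell markers 2 were found, at 15.3 and 40.2 in KO against 28.0 and 8.72 in WT. A gene or site is called here at an adjusted p under 0.1, and no marker gene was called between KO and WT with DESeq2. The part that these cell types have in the differences given here was not tested.

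The start sites of the 9 detected genes were first placed along the genes. Of the 76 sites, 42 (55.3%) were intronic, against 52.0% of the sites of all genes, and 29 were contained in an annotated transcript. Measured from the annotated 5′ end, 24 sites (31.6%) lay in the last 10% of the gene span, against 22.2% for all genes. The first 10% held 9 sites (11.8%, against 11.3%). The last 10% held 38.6% of the reads of these genes.

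**Figure D1:**
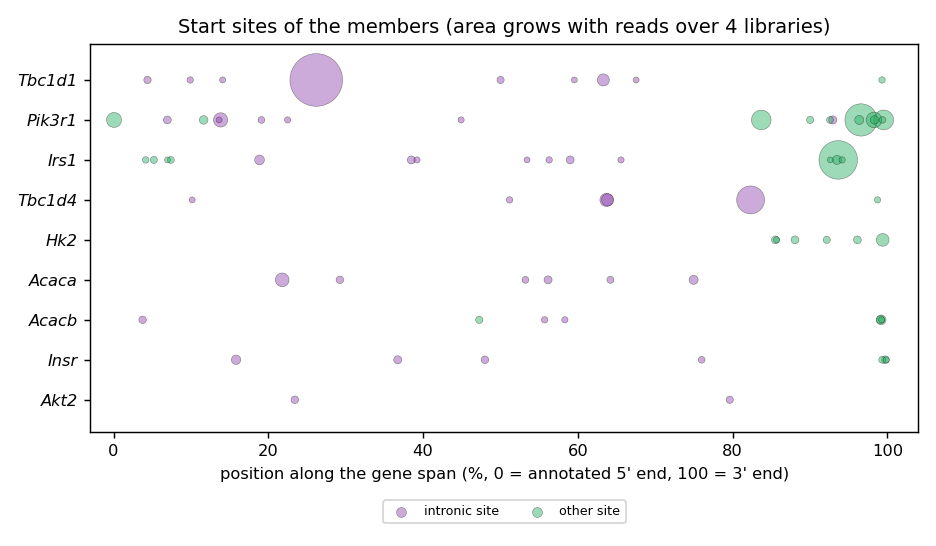
Position of each of the 76 start sites along the span of its gene, in percent of the span (0 at the annotated 5′ end), for 9 genes. The area of a circle grows with its reads over the 4 libraries, and purple marks intronic sites. A single intronic site holds 90.5% of the Tbc1d1 reads, and the Irs1 and Hk2 reads lie mostly at the 3′ side.

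The genes fell into different patterns. All 6 sites of Acaca and both sites of Akt2 were intronic, and intronic sites held 99.3% of the reads of Tbc1d1 and 98.3% of those of Tbc1d4. In contrast, Hk2 had no intronic site, and the last 10% of its span held 67.9% of its reads. The last 10% held 82.1% of the Irs1 reads, 66.6% of the Pik3r1 reads and 55.5% of the Acacb reads. The levels of Tbc1d1, Tbc1d4 and Acaca therefore rest on reads that begin inside introns. Exon borders were not used here, so a position in an exon or intron is as the authors' class code gives it.

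Pik3r1 was the only one of the 8 genes with an annotated RefSeq start that had a site in the window around such a start, from 250 bases before to 50 bases after it. In the whole table, 12.1% of 6826 such genes had one. This site spanned 101768081 to 101768238 of chromosome 13 (GRCm38), around the annotated start at 101768217 on the minus strand. It had 24 and 41 KO reads and 19 and 56 WT reads. The nearest sites of the other genes lay 2426 bases (Irs1) to 42268 bases (Hk2) away from an annotated start.

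The sequence upstream of this start is shown because it is the only promoter of the 8 genes with an annotated start that a site in the data touches. It covers the 250 bases before the start (chr13:101768218-101768467, GRCm38.p6, minus strand, from RefSeq). Capitals mark matches on either strand to the GC box GGGCGG and the CCAAT box CCAAT, which overlap nowhere here.

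Pik3r1 promoter, 5′ to 3′: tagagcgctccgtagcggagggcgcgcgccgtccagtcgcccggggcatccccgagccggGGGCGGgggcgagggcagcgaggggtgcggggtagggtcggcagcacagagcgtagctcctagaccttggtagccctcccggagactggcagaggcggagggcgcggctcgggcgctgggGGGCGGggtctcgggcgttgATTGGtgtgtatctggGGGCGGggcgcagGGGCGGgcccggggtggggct

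The window held 4 matches to GGGCGG, at 190, 70, 34 and 21 bases before the start, and 1 match to CCAAT on the opposite strand. Of 32851 RefSeq promoters, 32.7% held GGGCGG and 33.8% held CCAAT in the same window. It held no match to the TATA box TATAAA or the E-box CACGTG, which 12.4% and 6.02% of promoters held. These matches describe the letters only.

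The reads of the genes were then scaled per kilobase of gene span, introns included, as normalized counts per kb over the 4 libraries. This gives a density of read ends along the gene and not a level of RNA. Pik3r1 (mean 5.30) and Irs1 (5.29) were highest and overlapped, with 3.79 to 7.41 and 4.03 to 5.94. Tbc1d1 followed with 2.44 and did not overlap either of them (2.01 to 2.83). Hk2 (1.10) overlapped Tbc1d1 through WT replicate 2, in which it reached 2.09. Tbc1d4 (0.940, lowest library 0.571) overlapped Hk2 and lay just above Acacb, which reached 0.569. Acacb (0.386), Insr (0.305), Akt2 (0.268) and Acaca (0.199) were lowest, and neighbours among these 4 overlapped. The order rests on the division by span. Undivided, the mean normalized count of Tbc1d1 (476) was above those of Pik3r1 (463) and Irs1 (308). Acaca (54.0) was then close to Hk2 (54.3).

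The sums of each gene were compared between KO and WT to see whether the RNA of the glucose uptake route differed without AMPKα2. None of the 8 genes with enough reads was called with DESeq2 at an adjusted p under 0.1, and none with edgeR. In the whole table, DESeq2 called 2.67% of 4688 genes (1.71% higher and 0.960% lower in KO) and edgeR 0.883% of 6115 genes (0.54% and 0.343%). With DESeq2, 0 of the 8 had an unadjusted p under 0.05, against 9.77% of all genes. With edgeR 1 had, and the share over all genes was not computed for edgeR. The log2 differences (log2 fold change, KO minus WT) had a median of 0.27, against 0.01 over all genes, and 5 of 8 were above 0. The groups did not overlap in 3 of the 8 genes (37.5%), against 41.4% of all genes. KO was above WT in Insr and Acaca (22.0% of all genes) and below it in Irs1 (19.4%).

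**Figure D2:**
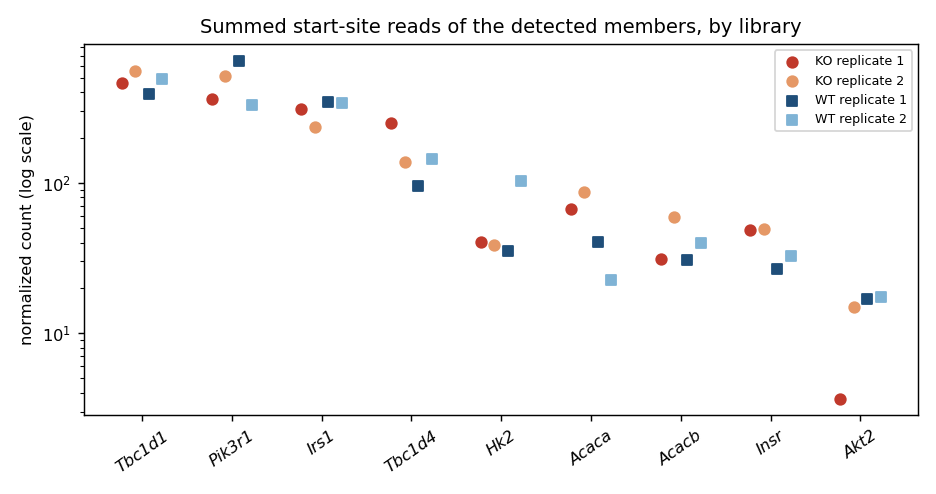
Normalized counts summed over the sites of each gene (log axis) in the 4 libraries, for the 9 detected genes in order of their mean. Circles are KO and squares are WT libraries. Both KO libraries lie above both WT libraries in Acaca and Insr and below them in Irs1 and Akt2.

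Slc2a4, which encodes GLUT4, had no row in the table and counts as not detected. It spans 69942286 to 69948216 of chromosome 11, 5931 bases, the shortest span of the 10 genes. The table lists sites with 10 or more reads over the 4 libraries, so sites of Slc2a4 with fewer reads would not appear.

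Insr encodes the insulin receptor and had 7 sites. Its sum was 48.9 and 48.9 normalized counts in KO against 26.6 and 32.4 in WT, from 19 and 26 reads in WT. Both KO libraries were higher, by a log2 difference of 0.73 (SE 0.76, DESeq2 adjusted p 0.920). The 95% interval, from 0.587-fold to 4.67-fold, included no change. Without intronic sites, the difference had the opposite sign (-0.59, SE 1.21).

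Irs1 encodes the main insulin receptor substrate of muscle. It had 311 and 235 normalized counts in KO against 346 and 341 in WT, all of its KO values being lower. The log2 difference was -0.33 (SE 0.45, DESeq2 adjusted p 0.951), with an interval from 0.429-fold to 1.47-fold. Its leading site, at 82236789 to 82236849 of chromosome 1 and contained in the transcript, held 76.9% of the reads. That site had 250 and 196 normalized counts in KO against 258 and 232 in WT, so the groups overlapped.

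Pik3r1 encodes p85α, and, from inner starts, the shorter forms p55α and p50α. Its sum was 362 and 513 normalized counts in KO against 648 and 331 in WT. WT held both the highest and the lowest library, and the log2 difference was -0.16 (SE 0.49, DESeq2 adjusted p 0.992). It was 0.40 without WT replicate 1 and 0.08 without KO replicate 1, so its sign rested on single libraries.

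Akt2 had 2 sites with 6 and 17 KO reads and 12 and 14 WT reads, too few for an adjusted p from DESeq2. This was a log2 difference of -0.90 with a wide interval, 0.0980-fold to 2.91-fold, and edgeR, which kept the gene, gave an adjusted p of 0.808. The value rested on single KO libraries, being -2.22 without KO replicate 2 and -0.20 without KO replicate 1. The site at 27603090 to 27603102 of chromosome 7 lay on the strand opposite to the gene. It held 0 and 10 KO reads and 10 and 6 WT reads, 26 reads in all, and the site on the gene's own strand held 23. A pseudogene, Akt2-ps on chromosome 11, has its own symbol. It had 17 and 9 KO reads and 1 and 5 WT reads, and how reads shared by such copies were placed is not given.

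Tbc1d1 was the most abundant of the genes by summed reads. It had 465 and 552 normalized counts in KO against 393 and 494 in WT, and the groups overlapped. The log2 difference was 0.20 (SE 0.43, DESeq2 adjusted p 0.988), with an interval from 0.637-fold to 2.06-fold. On the log2 scale this was the narrowest interval of the genes compared. An intronic site of 44 bases at 64207396 to 64207439 of chromosome 5 held 90.4% and 86.2% of its reads in KO and 89.3% and 98.5% in WT. It had 452 and 470 normalized counts in KO against 339 and 452 in WT. The site lay 22921 bases before the inner annotated start of the gene, and no other RefSeq gene overlapped it. Without intronic sites, 15 reads of 1 site were left, all in KO replicate 2.

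Tbc1d4 had 250 and 138 normalized counts in KO against 95.4 and 144 in WT. KO replicate 1 was highest, and the other libraries overlapped. This was a log2 difference of 0.69 (SE 0.55, DESeq2 adjusted p 0.856), with an interval from 0.763-fold to 3.43-fold. It was 0.21 without KO replicate 1. The intronic site at 101471881 to 101471894 of chromosome 14 held 68.8% of its reads, with 201 and 79.4 normalized counts in KO against 66.5 and 80.9 in WT. A second intronic site, at 101502959 to 101502967, had 54 and 41 KO reads and 10 and 1 WT reads. Its log2 difference was 2.29 (SE 1.26, DESeq2 adjusted p 0.616).

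Hk2 encodes the hexokinase that traps glucose in muscle. It had 40.3 and 38.4 normalized counts in KO against 35.1 and 103 in WT. WT replicate 2 alone stood apart, and the log2 difference of -0.82 (SE 0.75, DESeq2 adjusted p 0.903) was 0.14 without it. The leading site, at 82725307 to 82725359 of chromosome 6, held 98 of the 218 Hk2 reads. It lay 308 bases from the 3′ end of the gene and had 28 and 6 KO reads and 12 and 52 WT reads.

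The carboxylases are substrates of AMPK. Acaca had 66.6 and 86.5 normalized counts in KO against 40.7 and 22.4 in WT, with both KO libraries above both WT libraries. Its log2 difference of 1.28 (SE 0.71) was the largest of the genes and did not pass the test, the adjusted p being 0.599 with DESeq2 and 0.466 with edgeR. It was the gene with an unadjusted edgeR p under 0.05 (0.0486). The interval ran from 0.924-fold to 6.40-fold. Acacb, the carboxylase best known from muscle, had 31.2 and 59.4 normalized counts in KO against 30.9 and 39.9 in WT. These overlapped, with a log2 difference of 0.35 (SE 0.78, DESeq2 adjusted p 0.988), and the sign turned without KO replicate 2 (-0.17).

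**Figure D3:**
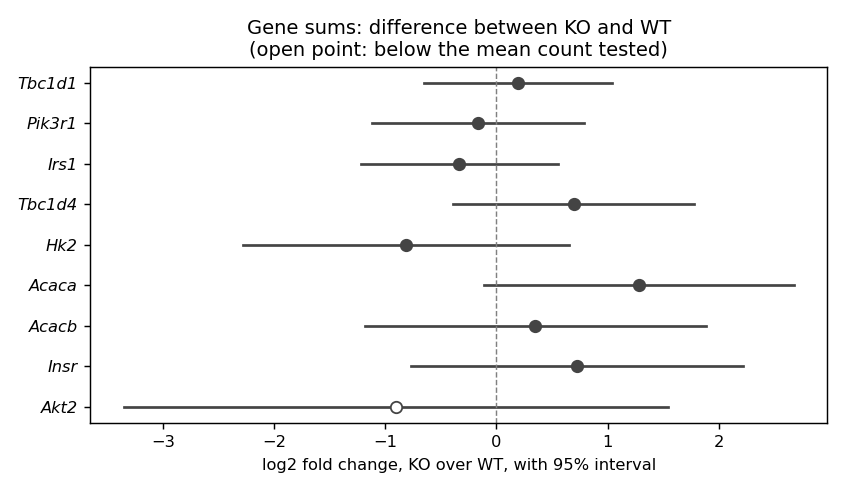
Log2 difference (fold change on the log2 scale) of the gene sums, KO over WT, with 95% intervals from the DESeq2 fit (n = 2 libraries per group). All 9 intervals include 0, and the open point of Akt2 marks a gene below the mean count tested.

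The single sites were compared next, since sites of a gene can differ while its sum does not. Of the 76 sites, 20 had enough reads to be tested. The other 56 had fewer reads, and the median site held 23.5 reads over the 4 libraries. DESeq2 called 2 of the 20 sites, both higher in KO and both in Pik3r1, against 3.21% of 11112 sites in the whole table (2.33% higher and 0.882% lower in KO). With edgeR 0 sites of these genes were called, against 0.712% of all sites (0.427% higher and 0.285% lower). An unadjusted DESeq2 p under 0.05 was found in 6 of the 20, against 9.63% of all sites. The groups did not overlap in 10 of the 20 sites (50%, against 40.4% of all tested sites), 7 with KO above WT (23.0% of all) and 3 below (17.4%). In all 7 sites with KO above WT, and all 6 above, the lower group had a mean under the cut of 8.76. They passed the filter through the group where they were high, so these counts are not independent of it. The 2 called sites had WT means of 2.51 and 4.75. With independent filtering off, their DESeq2 adjusted p was 0.238 and 0.290. The median log2 difference of the 20 sites was 0.28, against 0.10 over all sites tested.

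The first called site of Pik3r1 was intronic, at 101756118 to 101756122 of chromosome 13, 12.1 kb from the 5′ end of the gene. It had 18 and 104 KO reads and 2 and 2 WT reads. In normalized counts these were 11.8 and 89.8 against 2.71 and 2.31, so both KO libraries were higher but differed from each other by more than WT did. The reads gave a ratio of 18.2 (95% interval 6.94 to 67.9, counting error only). The log2 difference was 4.34 (SE 1.36, DESeq2 adjusted p 0.0626, edgeR adjusted p 0.190). Leaving out KO replicate 1 or 2 gave a log2 difference of 5.20 or 2.22. Without WT replicate 1 or 2 it was 4.46 or 4.19. The call was lost in most of these fits.

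The second lay within a transcript, at 101695021 to 101695031, which is 2395 bases before the inner annotated start at 101692630. It had 228 and 14 KO reads and 7 and 0 WT reads, so that KO replicate 1 held most of its reads. This was a log2 difference of 4.12 (SE 1.33, DESeq2 adjusted p 0.0765, edgeR adjusted p 0.309). Without KO replicate 1 it was 1.38, and the site was not tested. Without KO replicate 2 it was 4.97, and without WT replicate 1 or 2 it was 8.57 or 3.02. The call was lost in most of these fits. The 2 called sites thus had most of their reads in different KO animals.

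**Figure D4:**
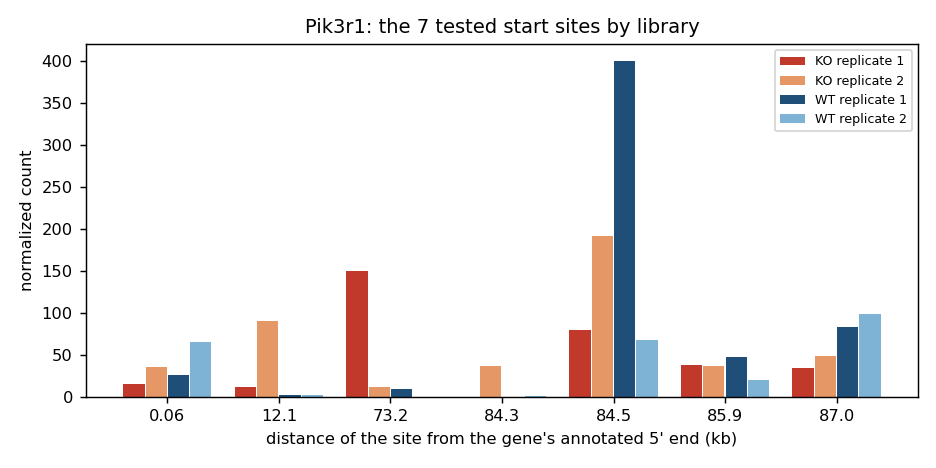
Normalized counts of the 7 tested start sites of Pik3r1 in the 4 libraries, ordered by distance from the annotated 5′ end of the gene (kb). The called sites, at 12.1 and 73.2 kb, are each high in a different KO library, and the site at 84.5 kb is highest in WT replicate 1.

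The most abundant site of Pik3r1, at 101683741 to 101683759, had 122 and 222 KO reads and 295 and 59 WT reads, so WT held both extremes. It took 63.9% of the gene's reads in WT replicate 1 and 20.6% to 37.8% in the other libraries. The site near the 3′ end, at 101681182 to 101681219, had 34.1 and 48.3 normalized counts in KO against 82.8 and 98.2 in WT. Both WT libraries were higher, with a log2 difference of -1.14 (SE 0.76, DESeq2 adjusted p 0.810). The promoter site had 15.8 and 35.4 normalized counts in KO against 25.8 and 64.7 in WT, which overlapped (log2 difference -0.83, SE 0.98). The site at 101682264 to 101682425 overlapped as well, with 38.1 and 37.1 in KO against 47.5 and 19.6 in WT. A site at 101683943 to 101683950 had 0 and 42 KO reads and 0 and 1 WT reads, so 1 animal held nearly all of its reads. This site was named after its values were seen.

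Sites of Pik3r1 on either side of the inner start were then summed, a split chosen after the called sites had been seen. The 9 sites upstream of the inner start, which transcripts from there cannot contain, held 54.4% and 33.2% of the gene's reads in KO and 10.8% and 26.3% in WT. Their sums were 211 and 168 normalized counts in KO against 67.9 and 80.9 in WT. The 2 called sites are part of this sum, so it is a description of the same reads. They held 11.8 and 149.6 normalized counts of it in KO replicate 1, and 89.8 and 12.1 in KO replicate 2. In WT they held 2.71 and 9.50 in replicate 1, and 2.31 and 0 in replicate 2. What is left of the sums without them overlaps between KO and WT.

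In other genes, tested sites with both KO libraries above WT were found in Tbc1d1, Tbc1d4, Insr and Acaca. The intronic site of Insr at 3259264 to 3259276 of chromosome 8 had 19 and 26 KO reads and 2 and 0 WT reads, a ratio of 13.4 (95% interval 3.51 to 114, counting error only), with a DESeq2 adjusted p of 0.497. The site of Tbc1d1 at 64279826 to 64279827 had 40 and 34 KO reads and 10 and 2 WT reads (DESeq2 adjusted p 0.847). Of the tested Irs1 sites, 2 had KO below WT. The one at 82236877 to 82237042 had 5 and 2 KO reads and 8 and 28 WT reads, with a log2 difference of -3.10 (SE 1.49, DESeq2 adjusted p 0.439). The other, at 82280433 to 82280443, had 17 and 12 KO reads and 12 and 11 WT reads. Only after scaling for depth was KO lower, with 11.2 and 10.4 normalized counts against 16.3 and 12.7 in WT, a log2 difference of -0.43 (SE 1.33). The tested site of Acacb, at 114249853 to 114249928 of chromosome 5, had 14 and 20 KO reads and 5 and 12 WT reads (log2 difference 0.35, SE 1.40). The site of Tbc1d4 at 101502699 to 101502731 had 16.4 and 16.4 normalized counts in KO against 10.9 and 42.7 in WT, which overlapped.

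The diffSpliceDGE test of unequal change among the sites of a gene covered the 6 genes with 2 or more sites past the filter. Of these, Acaca was called, with an adjusted p of 0.0933, against 1.35% of 2145 genes in the whole table. The adjusted p was 0.281 for Pik3r1, 0.564 for Irs1 and 1.00 for Tbc1d1, Tbc1d4 and Acacb.

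The Acaca call came from a site at 84274398 of chromosome 11, a single base in an intron. This site passed the filter on low counts through its WT reads alone, so the call is not independent of the filter, and without the filter the adjusted p for Acaca was 0.245. Neither KO library held a read there, while WT replicates 1 and 2 held 8 and 11. The WT mean was 5.17-fold a floor of 3 reads per KO library. That value leaves out the counting error of WT and the spread between replicates, so it is not a lower bound. The leading site of Acaca had more reads in KO instead. This site, at 84188919 to 84188923, had 49 and 56 KO reads and 9 and 1 WT reads, a log2 difference of 2.61 (SE 1.24, DESeq2 adjusted p 0.425). The site at 84333509 to 84333510 had 23 and 12 KO reads and 4 and 4 WT reads (DESeq2 adjusted p 1.00). As a comparison of levels, the site with no KO reads had too few reads for an adjusted p from DESeq2. Its edgeR adjusted p was 0.226. The usage call rested on 19 reads in WT, and the call was lost whichever library was left out. The adjusted p was 0.820 and 0.590 without KO replicates 1 and 2, and 1.00 without either WT library. The site at 84274398 was named after its values were seen.

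**Figure D5:**
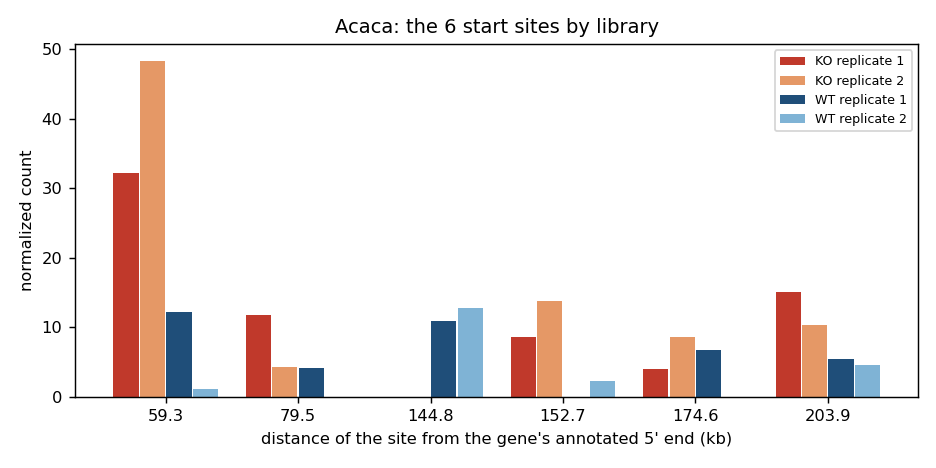
Normalized counts of the 6 start sites of Acaca in the 4 libraries, ordered by distance from the annotated 5′ end of the gene (kb). The site at 144.8 kb has reads only in the WT libraries, and the site at 59.3 kb is highest in both KO libraries.

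Other genes of the pathway were counted from a list of 81 genes by role. The table held 58 of them and 35 were tested. DESeq2 called 0 higher and 1 lower in KO, and edgeR called 0, with the shares of all genes given above. An unadjusted DESeq2 p under 0.05 was found for 4 of the 35. The median log2 difference was 0.41, with 23 of 35 (65.7%) higher in KO, against 0.01 and 50.5% for all genes.

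Near the receptor, 6 genes were tested and none was called. Igf1r, the IGF-1 receptor, had 1361 and 557 normalized counts in KO against 610 and 625 in WT, and Grb10, an adaptor that dampens insulin signalling, had 478 and 243 in KO against 94.0 and 291 in WT. In both genes the groups overlapped and KO replicate 1 was highest.

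Among the 14 tested PI3K and AKT genes, Prkci was the called gene. It encodes an atypical protein kinase C. Prkci had 2 and 3 KO reads and 6 and 46 WT reads, so WT replicate 2 held most of its reads. The log2 difference was -4.14 (SE 1.33, DESeq2 adjusted p 0.0853), and the gene did not pass the filter of edgeR. It passed the mean count filter of DESeq2 (16.5) through WT, with means of 1.92 in KO and 32.9 in WT. The call is therefore not independent of that filter, and with independent filtering off the DESeq2 adjusted p was 0.158. It was not called whichever library was left out, and without either WT library it was not tested. Gsk3b, a kinase that AKT inhibits, had 223 and 258 normalized counts in KO against 185 and 108 in WT, and Tsc1, a partner of the AKT target TSC2, had 104 and 292 in KO against 119 and 189 in WT. Rictor, a subunit of the kinase complex that phosphorylates AKT, had an unadjusted p under 0.05 and was named after its values were seen. It had 29.3 and 38.4 normalized counts in KO against 67.3 and 102 in WT (DESeq2 adjusted p 0.508).

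In GLUT4 traffic, 12 genes were tested and none was called. Rab10, a small GTPase on GLUT4 vesicles and a target of TBC1D4, had 1355 and 527 normalized counts in KO against 383 and 267 in WT. Its log2 difference was 1.54 (SE 0.52, DESeq2 adjusted p 0.112, edgeR adjusted p 0.313). Rac1, which acts on the actin cytoskeleton during glucose uptake, had 92.2 and 164 in KO against 36.5 and 33.6 in WT, a log2 difference of 1.87 (SE 0.64, DESeq2 adjusted p 0.118, edgeR adjusted p 0.209). Rac1 was named after its values were seen. Both KO libraries were above both WT libraries in each. Rala, another GTPase of vesicle traffic, overlapped, with 668 and 355 in KO against 426 and 232 in WT.

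Of 9 other genes of glucose transport and phosphorylation, 3 were in the table and none had enough reads to be tested. Slc2a3, a glucose transporter mainly of neurons, had 30 and 7 KO reads and 5 and 2 WT reads, and Slc2a12, another transporter, had 12 and 3 in KO against 7 and 3 in WT. Of the 15 genes around AMPK and malonyl-CoA, 3 were tested and none was called. Ppargc1a, the coactivator PGC-1α, had 103 and 79.5 normalized counts in KO against 57.5 and 79.7 in WT. Camkk2, a kinase upstream of AMPK, had 39.1 and 34.1 in KO against 28.0 and 41.1 in WT, so the groups overlapped in both.

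The genes whose pattern over the 4 libraries was nearest to that of Tbc1d1 were Pcgf5, Camk2g and Vegfc. Their distances from it on the centred log2 scale were 0.0201, 0.0495 and 0.0949, the smallest among 4687 genes, and with 4 libraries of small spread this is a description of those libraries.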

How the data were processed

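The values deposited by the authors are raw counts of reads, in a table whose rows are start sites and whose 4 columns are the libraries. Reads were placed on GRCm38.p5 per the labels, and sites were assigned to genes with Cuffcompare class codes. Mapping and clustering are described for the sister 3′ libraries only; for the 5′ ends they are not given in the sources used here. No molecular identifiers were described, so intervals and floors cover counting error only. The line of column totals was left out. The sites listed have 10 or more reads in all.

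Sites, and sums per symbol, were compared in R 4.3.3 by DESeq2 1.42.0 (Wald test), the tool of the study, with median-of-ratios size factors and independent filtering (mean count above 8.76 for sites and 16.5 for genes). Values with a Benjamini-Hochberg adjusted p under 0.1 over all features are called. As a second tool, edgeR 4.0.16 was run (quasi-likelihood), and start site usage was tested with diffSpliceDGE (Simes). Scripts were tested on simulated data. Each library is 1 animal (n = 2 per group), for which an exact permutation test cannot go below 0.333. How reads shared by related genes (Acaca and Acacb, Tbc1d1 and Tbc1d4) were placed is not given in the sources used here. No pair of libraries was identical.

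Gene spans and starts came from RefSeq (GRCm38.p6), and all 10 genes matched; Insr and Slc2a4 were not in the table of starts. The members, lists and tests were chosen with earlier results of these data known. Named were all 10 genes, their tested sites (for Pik3r1 the 6 most abundant), called sites, called genes of the pathway list and the 2 most abundant genes per role, and the 3 genes nearest in pattern to the most abundant member. Alternatives changed the test, scaling, filter, threshold, libraries, sites and block.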

Additional observations from a re-analysis of the deposited data

How the results depend on the processing

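The count of the 10 genes called was 0 under all alternatives run. Of 106 recomputed log2 differences of these genes, none was called and all but 5 kept their direction. These 5 included Acacb at -0.17 without KO replicate 2, Hk2 at 0.14 without WT replicate 2, and Insr at -0.59 without intronic sites. The others were Pik3r1 at 0.08 without KO replicate 1 and 0.40 without WT replicate 1. Turning independent filtering off leaves each log2 difference unchanged, so that setting could not reverse a direction. Without intronic sites, the kept directions of Tbc1d1 (4.84, SE 3.18) and Tbc1d4 (0.13, SE 2.34) rested on few reads. With each replicate left out, Acacb ranged from -0.17 to 0.76, Hk2 from -1.39 to 0.14, Pik3r1 from -0.60 to 0.40, Akt2 from -2.22 to -0.20, Tbc1d4 from 0.21 to 1.07, Tbc1d1 from 0.04 to 0.34, Irs1 from -0.54 to -0.14, Acaca from 0.88 to 1.77 and Insr from 0.60 to 0.85.

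The number of called sites, 2 in the comparison as reported, was 0 with edgeR, 0 with independent filtering off, 0 at an adjusted p under 0.05, 1 with library totals as size factors, 1 with filterByExpr before DESeq2, and 0 to 1 with each replicate left out. The number of genes with changed start site usage, 1 as reported, was 0 with library totals, 0 at 0.05, 0 on primary chromosomes, 0 without filterByExpr, and 0 to 1 with each replicate left out, where the 1 was Pik3r1 (without KO replicate 2) and not Acaca. The number of called pathway genes, 1 as reported, was 0 with edgeR, library totals, independent filtering off, filterByExpr, an adjusted p under 0.05 or primary chromosomes, and 0 to 1 with each replicate left out. It was Rab10 without KO replicate 2, and Rac1 with gene sums that left out intronic sites. Prkci was not tested with edgeR, with filterByExpr, on primary chromosomes or without either WT library. The cause of the other changes was not tested.

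KO and WT share replicate numbers, but deviations of same-numbered libraries correlated at 0.0569 over 12055 sites and 0.102 over 4688 genes. With 2 pairs, and no label that ties the numbers to a shared source, this does not show that they pair the libraries. With the replicate block, 1 site (the Pik3r1 site at 101695025), 0 genes with changed usage and 0 pathway genes were called.

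The standard errors of the 8 tested genes were 0.43 to 0.78 on the log2 scale with n = 2 per group. Replicates differed by more than counting error, with a chi-square per degree of freedom of 10.5 between the KO libraries and 6.46 between the WT libraries.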

Other observations

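Of the 76 sites, 7 had 0 reads in both WT libraries and 3 had 0 in both KO libraries. The same share over all sites was not computed. The WT libraries were shallower, with 1300069 and 1568945 reads against 2900279 and 2303294 in KO, and the part of depth in these counts was not tested. The share of these sites with 0 reads was 14.5% and 10.5% in KO and 19.7% and 31.6% in WT, against 10.7% and 15.8% in KO and 25.6% and 26.7% in WT for all sites.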
